A study of Saccharomyces cerevisiae with 11 samples.

Results

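The genes examined here carry glucose sensing and glucose repression in budding yeast: SNF3, RGT2, MTH1, STD1, RGT1, MIG1, MIG2, SNF1, REG1 and SUC2. A probe set was taken as a member when its single gene symbol was one of these names, which gave 12 probe sets for 10 of the 5656 genes that had a probe set of their own on the array. Of these genes, 9 had 1 probe set and SUC2 had 3. The rule matches names and uses no intensity, and the names themselves were listed with earlier results of these data known.

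RNA was measured on 11 Affymetrix YG-S98 arrays from the prototrophic laboratory strain CEN.PK113-7D, a haploid of genotype MATa MAL2-8c SUC2 that was the same in all groups. All cultures were anaerobic and glucose-limited, without any drug or mutation that set the groups apart. A chemostat is fed and drained at one rate, so that cells grow at that rate. In a retentostat the outflow passes a filter that keeps the cells, so growth slows towards zero while glucose is still fed. The groups were the chemostat growing at 0.025 per h (3 independent cultures) and the retentostat at day 2 (0.0084 per h), day 9 (0.0024 per h), day 16 (0.0011 per h) and day 22 (0.00063 per h). Each retentostat day had 2 arrays, from the same pair of cultures. The question put to these genes is whether the transcripts of the glucose signalling machinery moved as growth slowed under a constant glucose limitation. The RNA comes from whole cultures, so fewer cells that carry a transcript and less of it per cell cannot be told apart.

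Yeast reads external glucose through the membrane sensors Snf3 and Rgt2, which are relatives of the hexose transporters. When they are engaged, the corepressors Mth1 and Std1 are degraded, and the DNA-binding repressor Rgt1 lets go of the hexose transporter genes. In a separate branch, glucose repression is carried by the zinc finger repressors Mig1 and Mig2, and the kinase Snf1 lifts it when glucose is scarce by acting on Mig1. Reg1 directs the phosphatase Glc7 to Snf1 and switches the kinase off. SUC2 encodes invertase, the sucrose-splitting enzyme, and is the classical target by which Mig1 repression is read.

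Intensities are linear array units as deposited, and log2 changes are later minus earlier group on values floored at 12. Over the 5597 genes tested, the median log2 change against the chemostat was 0.14 for day 16 and 0.23 for day 22, and it was 0.19 for day 22 against day 2, so changes relative to these medians are given for the late days. The ratio of the 5′ to the 3′ actin control probe sets, a measure of RNA integrity, was lowest on the second array of day 16, at 0.472, and on the second array of day 22, at 0.341, against 0.766 to 0.796 on the chemostat arrays. This decline moves with the late days, so calls that were lost without those 2 arrays, or with the ratio as a covariate in the fit, are named beside the results. All comparisons with the chemostat share its 3 arrays, and all comparisons with day 2 share its 2 arrays.

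SUC2 and MTH1 fell, RGT2 fell on the later days against day 2, RGT1 rose at day 16, and none of the other 6 members passed in any comparison. The RGT2 calls were lost with culture as a block over the retentostat arrays, and the RGT1 call under either other scaling of the arrays. In the limma F test over the 5 groups, 3 of the 10 members passed an adjusted p of 0.05, against 39.5% of all genes tested. They were SUC2 (adjusted p = 7.13e-05), MTH1 (0.0101) and RGT2 (0.0319), while RGT1 did not pass (0.132). MTH1 and RGT2 lost this call without the arrays of lowest actin ratio and with that ratio as a covariate. Over the 4 retentostat days alone 2 members passed, SUC2 and MTH1, against 11.8% of all genes. Neither kept that call without the arrays of lowest actin ratio. Against the chemostat, no member passed at day 2, where 1.55% of all genes did. At an unadjusted p under 0.05 there were 2 at day 2, SUC2 and RGT2, and limma with trend and robust settings called 0. Day 9 gave 1 member, against 38% of all genes, day 16 gave 3, against 39.4%, and day 22 gave 2, against 42.6%. The median log2 change of the 10 members at day 22 was -0.16, beside 0.23 over all genes. On that day 8 of the 10 had array values that did not overlap those of the chemostat, as did 68.2% of all genes.

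**Figure D1:**
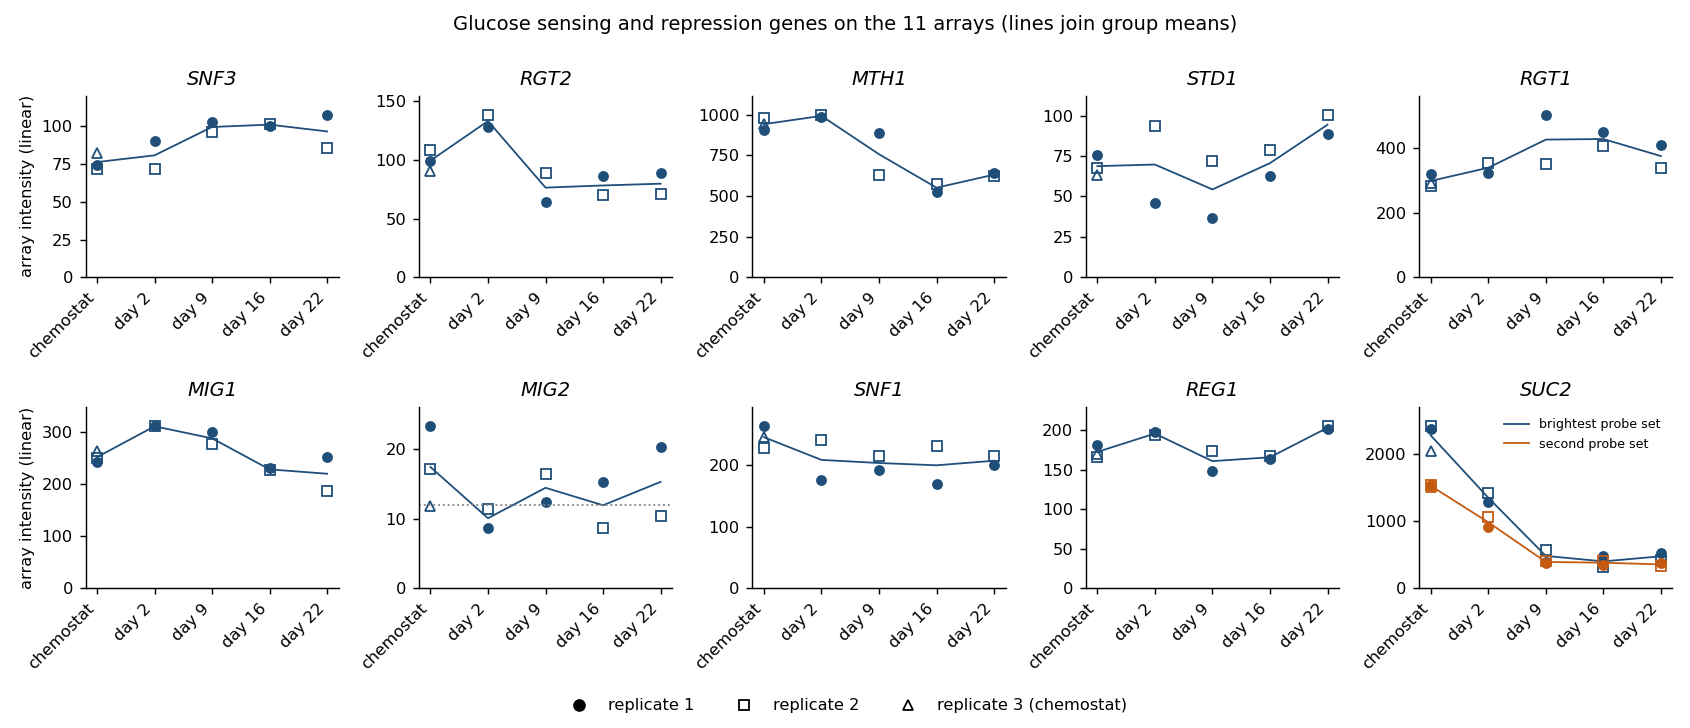
Array intensity (linear scale, each panel with its own axis from 0) of the 10 genes on the 11 arrays, with groups from the chemostat to day 22 on the horizontal axis. Points are single arrays, with one marker per replicate number, and lines join group means. SUC2 is shown for both of its probe sets above the floor, and the dotted line in the MIG2 panel marks the floor of 12. The brightest SUC2 probe set stands at 317.1 to 579.5 from day 9 on and at 2043.6 to 2414.3 on the chemostat arrays.

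**Figure D2:**
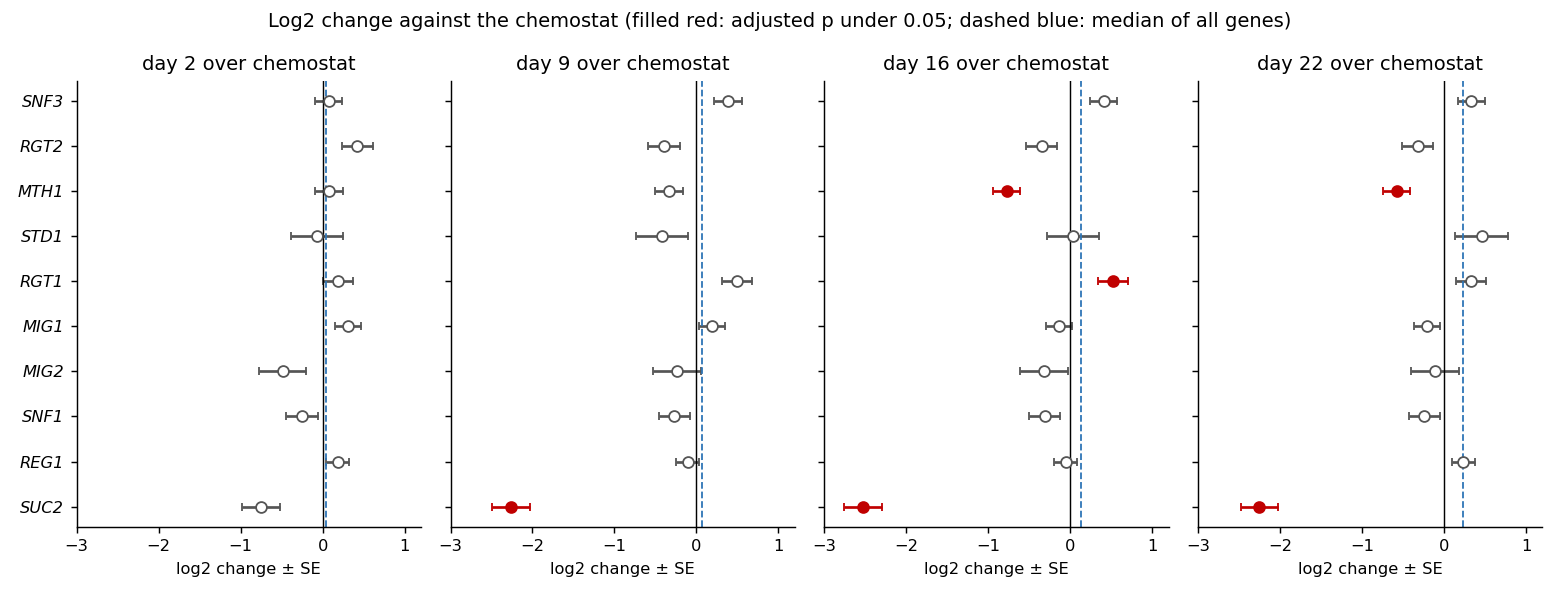
Log2 change ± SE of each gene on each retentostat day against the chemostat (horizontal axis), 1 panel per day. Filled red points passed an adjusted p of 0.05, and the dashed line is the median of all 5597 genes. SUC2 lies at -2.25 on day 22, and the genes with open symbols did not pass.

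Both sensors are transmembrane proteins with a long cytoplasmic tail, Snf3 being known for high and Rgt2 for low affinity towards glucose. RGT2 (YDL138W) gave 99.3, 108.2 and 90.4 on the chemostat arrays. Its retentostat values were 127.9 and 138.1 on day 2, 63.9 and 88.7 on day 9, 86.5 and 69.8 on day 16, and 88.5 and 70.8 on day 22. The day 2 arrays were above all others, and all 6 later arrays were below the 3 chemostat arrays.

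Against the chemostat, the log2 change of RGT2 was 0.42 ± 0.19 at day 2 (SE, adjusted p = 0.302) and -0.32 ± 0.19 at day 22 (adjusted p = 0.195). With the arrays scaled by quantiles the day 22 change was -0.55 (adjusted p = 0.0317), and with them scaled to one median it was -0.55 (adjusted p = 0.0328), so that call depends on the scaling. Against day 2, RGT2 fell: its log2 change was -0.82 ± 0.21 for day 9 (adjusted p = 0.0459), -0.77 for day 16 (0.0341) and -0.75 for day 22 (0.0344). The day 22 change was -0.93 relative to the median gene. Both cultures were lower on each of these days, with changes of -0.53 and -0.96 by day 22. With culture as a replicate block over the retentostat arrays the adjusted p was 0.0976 for day 9, 0.0809 for day 16 and 0.0753 for day 22, so the paired fit does not keep these calls. They held under 9 of 26 alternatives for day 9, 16 for day 16 and 17 for day 22. All 3 were lost without either day 2 array (adjusted p from 0.11 to 0.177), with only the arrays compared in the fit, and without the arrays of lowest actin ratio. With that ratio as a covariate the calls of days 16 and 22 were lost. The change was then -0.62 for day 16 (adjusted p = 0.0866) and -0.38 for day 22 (adjusted p = 0.498). In descending order the RGT2 means ran day 2, chemostat, day 22, day 16, day 9, and no neighbours in that order differed at an adjusted p of 0.05.

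SNF3 (YDL194W) gave 74.6, 72.0 and 82.4 on the chemostat arrays. In the retentostat it read 90.1 and 71.5 (day 2), 103.2 and 96.0 (day 9), 100.5 and 101.8 (day 16), and 107.5 and 85.8 (day 22). All 6 arrays from day 9 on were above the chemostat arrays. No change of SNF3 passed: its largest, at day 16 against the chemostat, was 0.41 ± 0.17 (SE, adjusted p = 0.0728), or 0.27 relative to the median gene, and it passed under 2 of 25 alternatives. Its sign from day 9 on was opposite to that of RGT2. The log2 ratio of the SNF3 to the RGT2 signal was between 0.11 and 0.69 on the 6 arrays from day 9 on, and between -0.95 and -0.13 on the 5 arrays of day 2 and the chemostat. Its mean was 0.28 at day 22, -0.38 in the chemostat and -0.73 at day 2. The day 22 mean differed by 0.66 from the chemostat and by 1.01 from day 2, given as a description with no test. Since the probe sets differ, only the change of this ratio can be read and not which sensor has more RNA.

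Mth1 and Std1 are paralogs that hold Rgt1 on its targets when glucose is low. MTH1 (YDR277C) gave 905.8, 978.3 and 939.4 on the chemostat arrays. The day 2 pair read 987.1 and 997.2, the day 9 pair 885.8 and 627.0, the day 16 pair 526.8 and 574.1, and the day 22 pair 640.1 and 621.3. The arrays of days 16 and 22 were all below those of the chemostat and day 2, and at day 9 the cultures lay apart.

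MTH1 fell at day 16 against the chemostat, with a log2 change of -0.77 ± 0.17 (SE, adjusted p = 0.00456), which is -0.91 relative to the median gene. The day 22 change was -0.58 ± 0.17 (adjusted p = 0.0176), or -0.81 relative to the median gene. The day 16 call held under all 25 alternatives run for it. The day 22 call held under 20 of 25. It was lost without chemostat replicate 2 (adjusted p = 0.0572), without day 22 replicate 1 (0.0606) or replicate 2 (0.0909), without both arrays of lowest actin ratio (0.107) and with that ratio as a covariate (0.142).

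Against day 2, MTH1 changed by -0.85 on the log2 scale by day 16 (adjusted p = 0.0139) and by -0.65 by day 22 (adjusted p = 0.0344), and it was lower in both cultures on both days. With the replicate block over the retentostat arrays the adjusted p was 0.0417 for day 16 and 0.0706 for day 22. The day 16 call held under 20 of 26 alternatives and was lost on leaving out any 1 of the 4 arrays compared (adjusted p from 0.0615 to 0.0683), with only those arrays in the fit (0.0581) and without the arrays of lowest actin ratio (0.106). The day 22 call held under 16 of 26. It was lost without either array of day 2 or of day 22, and without the arrays of lowest actin ratio (-0.63). With that ratio as a covariate it was lost too (-0.74, adjusted p = 0.182). In descending order the MTH1 means ran day 2, chemostat, day 9, day 22, day 16, and no neighbours in that order differed at the threshold.

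STD1 (YOR047C) gave 75.5, 67.4 and 63.2 on the chemostat arrays. Its retentostat values were 45.9 and 93.5 on day 2, 36.6 and 72.0 on day 9, 62.7 and 78.4 on day 16, and 88.3 and 100.3 on day 22. The cultures differed by about as much as the days, with the first culture the lower on each day. The log2 change at day 22 was 0.46 ± 0.32 against the chemostat (adjusted p = 0.27) and 0.87 ± 0.35 against day 9 (adjusted p = 0.207). Without the second array of day 9 the difference between days 22 and 9 was 1.36 and passed (adjusted p = 0.0445). The log2 ratio of MTH1 to STD1 signal changed by -0.81 at day 16 and by -1.03 at day 22 against the chemostat, given as a description with no test.

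RGT1 (YKL038W), the zinc cluster repressor of the hexose transporter genes, gave 321.0, 283.9 and 292.3 on the chemostat arrays. In the retentostat it read 324.8 and 355.2 (day 2), 503.6 and 351.3 (day 9), 450.4 and 408.0 (day 16), and 412.0 and 340.5 (day 22). Every retentostat array was above the chemostat arrays. RGT1 rose at day 16, by 0.52 ± 0.18 on the log2 scale (SE, adjusted p = 0.0422), or 0.38 relative to the median gene. The other days did not pass, at 0.49 for day 9 (adjusted p = 0.0531) and 0.33 for day 22 (adjusted p = 0.171). The day 16 call held under 13 of 25 alternatives. It was lost with quantile scaling (0.33, adjusted p = 0.196) and with scaling to one median (0.41, adjusted p = 0.138). The replicate block over all arrays also lost it (adjusted p = 0.0593). So did leaving out the 2 arrays of lowest actin ratio (change of 0.59) and taking that ratio as a covariate (0.61, adjusted p = 0.0599). Leaving out 1 array lost it for each of the chemostat, day 2 and day 16 arrays, with adjusted p up to 0.176.

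Mig1 recruits a general corepressor to glucose-repressed promoters, and Mig2 overlaps with it in function. MIG1 (YGL035C) gave 241.5, 250.8 and 262.5 on the chemostat arrays. The day 2 pair read 310.6 and 310.7, the day 9 pair 299.1 and 276.0, the day 16 pair 230.0 and 226.2, and the day 22 pair 251.9 and 187.6. The arrays of days 2 and 9 were above those of the chemostat, and those of days 16 and 22 were below days 2 and 9. No MIG1 change passed. The log2 change was 0.30 ± 0.16 at day 2 against the chemostat (adjusted p = 0.376) and -0.21 ± 0.16 at day 22 (adjusted p = 0.309). At day 22 against day 2 it was -0.52 ± 0.17 (adjusted p = 0.0666), or -0.70 relative to the median gene. This last difference passed under 5 of 26 alternatives. Among them were quantile scaling (-0.75, adjusted p = 0.0226) and scaling to one median (-0.71, adjusted p = 0.0383). The others were a floor of 50 (-0.52, adjusted p = 0.0373), no filter (-0.52, adjusted p = 0.0438) and leaving out day 22 replicate 1 (-0.73).

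MIG2 (YGL209W) was near the floor of 12 throughout. It gave 23.2, 17.1 and 11.8 on the chemostat arrays. Its retentostat values were 8.7 and 11.4 on day 2, 12.4 and 16.4 on day 9, 15.2 and 8.6 on day 16, and 20.2 and 10.3 on day 22. Both arrays of day 2 were under the floor, so no fold is given for that day. Differences of MIG2 between these groups were not detectable at this signal.

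Snf1 is the catalytic subunit of the yeast AMP-activated kinase. SNF1 (YDR477W) gave 263.3, 228.2 and 245.4 on the chemostat arrays. In the retentostat it read 175.6 and 241.8 (day 2), 192.6 and 214.7 (day 9), 169.1 and 230.8 (day 16), and 200.4 and 214.3 (day 22). The chemostat arrays were the higher on average, with overlap at days 2 and 16. The log2 change at day 22 was -0.24 ± 0.19 (SE, adjusted p = 0.326), and it passed with quantile scaling (-0.53, adjusted p = 0.028). With that scaling the day 16 change also passed (-0.49, adjusted p = 0.0386).

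REG1 (YDR028C) gave 181.4, 166.4 and 169.7 on the chemostat arrays. The day 2 pair read 197.2 and 194.2, the day 9 pair 148.5 and 173.2, the day 16 pair 163.8 and 167.7, and the day 22 pair 201.2 and 204.9. Both day 22 arrays were above all others. No REG1 change passed, and at day 22 against the chemostat it was 0.24 ± 0.14 (SE, adjusted p = 0.199), which is 0.00 relative to the median gene.

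Of the 10 members SUC2 (YIL162W) had the most negative log2 change on each retentostat day. Its brightest probe set, which carries the gene's value in the fit, gave 2375.8, 2414.3 and 2043.6 on the chemostat arrays. Its retentostat values were 1286.3 and 1413.8 on day 2, 388.3 and 579.5 on day 9, 488.6 and 317.1 on day 16, and 533.3 and 425.0 on day 22. All 8 retentostat arrays were below the chemostat arrays, and the 6 arrays from day 9 on were below both day 2 arrays. The mean was 479 ± 76.6 at day 22 (SD, n = 2) and 2278 ± 204 in the chemostat (SD, n = 3).

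The log2 change of SUC2 against the chemostat was -0.75 ± 0.23 at day 2, which did not pass (SE, adjusted p = 0.125). SUC2 fell on the later days, with changes of -2.26 for day 9 (adjusted p = 0.000133), -2.53 for day 16 (4.39e-05) and -2.25 for day 22 (6.33e-05), each with an SE of 0.23. Relative to the median gene the day 16 change was -2.67 and the day 22 change -2.49. These 3 calls held under all 25 alternatives run for them. The changes were smallest, at -1.40 for day 9, -1.51 for day 16 and -1.45 for day 22, with the mean of all 3 SUC2 probe sets, of which 1 was under the floor on every array. In descending order the SUC2 means of log2 values ran chemostat, day 2, day 22, day 9, day 16. On the linear scale the day 9 mean (484) was just above that of day 22 (479). Of the neighbours in the log2 order only day 22 against day 2 differed at the threshold.

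Each later day was also compared with day 2. At day 9 against day 2, 2 members passed, SUC2 and RGT2, against 5.81% of all genes, with SUC2 at -1.51 (adjusted p = 0.0114). At day 16, 3 passed, SUC2, MTH1 and RGT2, against 13.6% of all genes, with SUC2 at -1.78 (adjusted p = 0.00183). At day 22 the same 3 passed, against 16.7%, with SUC2 at -1.50 (adjusted p = 0.00323). The SUC2 change was -1.27 in the first culture and -1.73 in the second. SUC2 lost the day 9 call without either day 2 array (adjusted p = 0.0529 and 0.069), without the first array of day 9 (0.0565), and with only the arrays compared in the fit (0.249). It lost the day 16 call without both arrays of lowest actin ratio (adjusted p = 0.0529), and the day 22 call with that ratio as a covariate (-0.98, adjusted p = 0.126).

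After day 9 no further change of a member passed. At day 16 against day 9 0 members passed in limma, against 0.0179% of all genes, with 1 member at an unadjusted p under 0.05, MTH1. At day 22 against day 9 0 passed, against 1.57% of all genes, with 2 at an unadjusted p under 0.05, STD1 and MIG1. At day 22 against day 16 0 passed, against 0% of all genes, with 0 at an unadjusted p under 0.05. Limma with trend and robust settings also called 0 in these comparisons.

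The other SUC2 probe sets were read on their own. The second gave 1534.3, 1533.5 and 1515.4 on the chemostat arrays. In the retentostat it read 912.9 and 1056.4 (day 2), 378.3 and 411.0 (day 9), 356.0 and 410.2 (day 16), and 381.6 and 333.5 (day 22). With every probe set tested on its own, its log2 change was -0.64 at day 2 (adjusted p = 0.072), -1.95 at day 9 (adjusted p = 9.27e-05) and -2.10 at day 22 (adjusted p = 2.58e-05). The third probe set was under the floor on all 11 arrays and was not tested, so the fall of SUC2 rests on the other probe sets. The log2 ratio of the brightest to the second probe set was -0.37 on the second array of day 16 and 0.04 on the first array of day 9. It was 0.35 to 0.50 on the other later arrays and 0.42 to 0.65 on the day 2 and chemostat arrays. Telomeric SUC copies exist in some yeast strains, and the brightest probe set is of a kind whose probes may match more than 1 transcript. Whether the second probe set matches SUC2 alone was not checked either. The reference annotation holds 1 SUC gene.

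The genes whose 4 changes against the chemostat lay nearest to those of SUC2 were PAU16, ASN1 and PAU13, with mean absolute log2 differences of 0.11, 0.13 and 0.22 over the 4 days. ASN1, an asparagine synthetase, changed by -0.86 by day 2, -2.35 by day 9, -2.29 by day 16 and -2.18 by day 22. PAU16 and PAU13 are seripauperins, a family of near-identical subtelomeric genes whose probe sets may detect several members.

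Other glucose-repressed genes are known to need Snf1 for their expression, as SUC2 does. Of 15 such genes, 7 rose and 0 fell at day 22 against the chemostat, where 31.8% of all genes rose and 10.8% fell. The list's median change was 0.52 beside 0.23 over all genes. FBP1, the fructose-1,6-bisphosphatase of gluconeogenesis, gave 342.0 and 407.4 at day 22, against 19.1, 20.9 and 22.8 in the chemostat, and rose by 4.16 on the log2 scale (adjusted p = 4.35e-07). PCK1, which makes phosphoenolpyruvate from oxaloacetate, gave 2508.3 and 3071.1 at day 22, against 823.5, 805.9 and 831.4 in the chemostat, a rise of 1.76 (adjusted p = 5.97e-05). MLS1, malate synthase of the glyoxylate cycle, gave 148.2 and 147.3 at day 22, against 45.8, 44.7 and 42.7 in the chemostat, a rise of 1.74 (adjusted p = 0.000162). No day 22 array of these 3 genes overlapped the chemostat. FBP1, PCK1 and MLS1 kept their call under 25 of 25 alternatives. The count for the list was 5 higher and 0 lower under either other scaling, 4 higher and 0 lower without the arrays of lowest actin ratio, and 3 higher and 0 lower with that ratio as a covariate.

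**Figure D3:**
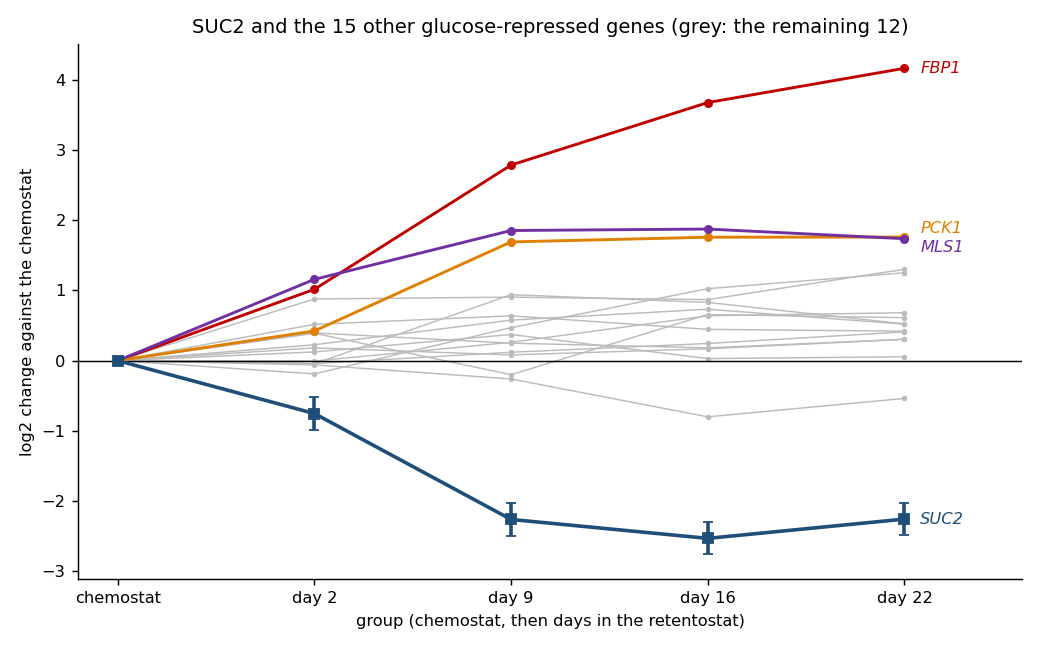
Log2 change against the chemostat (vertical axis) by group from the chemostat to day 22 (horizontal axis) for SUC2, with SE bars, and for 15 genes that glucose represses and that need Snf1. FBP1, PCK1 and MLS1 are coloured and the others grey. SUC2 ends at -2.25 on day 22, and FBP1 at 4.16.

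The partners of the sensing branch moved in both directions. A list of 11 genes held the casein kinases, the ubiquitin ligase with its conjugating enzyme and the corepressors that work with Mth1, Std1 and Rgt1, together with the repressor gene MIG3 and the hexokinase gene HXK2. Of these, 1 rose and 3 fell at day 22 against the chemostat, beside 31.8% and 10.8% of all genes. Their median change was 0.02. HXK2, the hexokinase that also takes part in glucose repression with Mig1, gave 480.4 and 466.4 at day 22, against 1489.2, 1530.3 and 962.6 in the chemostat, a log2 change of -1.46 (adjusted p = 0.0132). TUP1 gave 256.3 and 188.1 at day 22, against 465.6, 498.5 and 422.0 in the chemostat, a log2 change of -1.07 (adjusted p = 0.00324). CYC8, which forms the general corepressor with Tup1, gave 137.5 and 116.1 at day 22, against 253.0, 286.3 and 254.0 in the chemostat, a log2 change of -1.06 (adjusted p = 0.0019). All the day 22 arrays of these genes were below the chemostat arrays. HRT1, the RING subunit of the SCF ubiquitin ligase, rose by 0.81 (adjusted p = 0.00437). HXK2 lost its call without either day 22 array and without the arrays of lowest actin ratio, TUP1 without the second day 22 array, and all 4 genes with the actin ratio as a covariate. The list gave 2 higher and 5 lower with quantile scaling, 1 higher and 4 lower with scaling to one median, and 1 higher and 2 lower without the arrays of lowest actin ratio.

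Of the 4 hexose transporter genes that Rgt1 represses, 1 rose and 0 fell at day 22, beside 31.8% and 10.8% of all genes, with a median change of 0.57. HXT1, a low-affinity transporter, gave 50.6 and 82.1 at day 22, against 17.9, 12.1 and 15.4 in the chemostat, and rose by 2.11 (adjusted p = 0.000592). The chemostat values are close to the floor, the gene was under it on 1 array of day 2 and 1 of day 9, and the call was lost with a floor of 50 and with the actin ratio as a covariate. HXT2, a high-affinity transporter gene named here after its values were seen, fell on the earlier days. It gave 41.5 and 40.5 on day 2, 71.1 and 52.8 on day 9, 74.1 and 110.8 on day 16, and 106.2 and 137.4 on day 22, against 287.3, 389.0 and 107.7 in the chemostat. The chemostat arrays lay far apart, and those of days 16 and 22 overlapped them. Its log2 change was -2.48 at day 2 (adjusted p = 0.0238), -1.90 at day 9 (adjusted p = 0.00645) and -1.34 at day 16 (adjusted p = 0.0307), and -0.92 at day 22, which did not pass (adjusted p = 0.107). The call held under 15 of 25 alternatives for day 2, 24 for day 9 and 16 for day 16. Those of days 2 and 16 were lost without chemostat replicate 1 or 2, or without either array of their own day. Both were also lost without the arrays of lowest actin ratio, and the day 16 call with that ratio as a covariate.

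Of 9 genes for subunits, upstream kinases and the phosphatase of the Snf1 complex, 5 rose and 0 fell at day 22, beside 31.8% and 10.8% of all genes, with a median change of 0.52. REG2, a paralog of REG1, gave a mean of 1151 ± 272 at day 22 (SD, n = 2), against 592 ± 20.0 in the chemostat (SD, n = 3), and rose by 0.94 (adjusted p = 0.00742). SIP2, a β subunit, rose by 0.85 (adjusted p = 0.0210), and SNF4, the γ subunit, by 0.82 (adjusted p = 0.0280). This count depends on the scaling: under either other scaling 1 gene rose and 1 fell, without the arrays of lowest actin ratio 1 rose and 0 fell, and with that ratio as a covariate 0 rose and 0 fell. The SIP2 and SNF4 calls were lost under each of these. The REG2 call was kept under both scalings and lost without the arrays of lowest actin ratio, with the covariate and without the second day 22 array, and its change ran from 0.37 to 1.18 over the alternatives. The gene that passed without the arrays of lowest actin ratio was SIP1, another β subunit gene, named here after its values were seen, with a change of 0.54 (adjusted p = 0.0123) over all arrays. The SIP1 call held under 20 of 25 alternatives. It was lost under either other scaling, with the covariate, without chemostat replicate 1 and without day 22 replicate 1.

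Glucose is also sensed through the receptor Gpr1 and protein kinase A. Of 11 genes of that route, 2 rose and 0 fell at day 22, beside 31.8% and 10.8% of all genes, with a median change of 0.28 beside 0.23. RGS2, which turns off the Gpr1-coupled Gα protein, gave a mean of 132 ± 22.6 at day 22 (SD, n = 2), against 30.0 ± 0.513 in the chemostat (SD, n = 3), and rose by 2.13 (adjusted p = 1.17e-05). PDE1, a cyclic AMP phosphodiesterase, rose by 1.26 (adjusted p = 0.000288). Both kept their call under 25 of 25 alternatives.

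Of 5 maltose and isomaltose genes, 3 rose and 0 fell at day 22, beside 31.8% and 10.8% of all genes, with a median of 0.50. MAL31, a maltose permease, rose by 1.08 (adjusted p = 0.00329). MAL11 rose by 0.62 (adjusted p = 0.0491) and MAL13 by 0.50 (adjusted p = 0.0445). The MAL11 call held under 9 of 25 alternatives and the MAL13 call under 12. The MAL31 call was lost with the actin ratio as a covariate. Scaling to one median left 1 gene of the list higher, as did leaving out the arrays of lowest actin ratio, and the covariate left 0. MAL11 and MAL31 are related transporter genes, and whether these probe sets separate them was not checked.

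**Figure D4:**
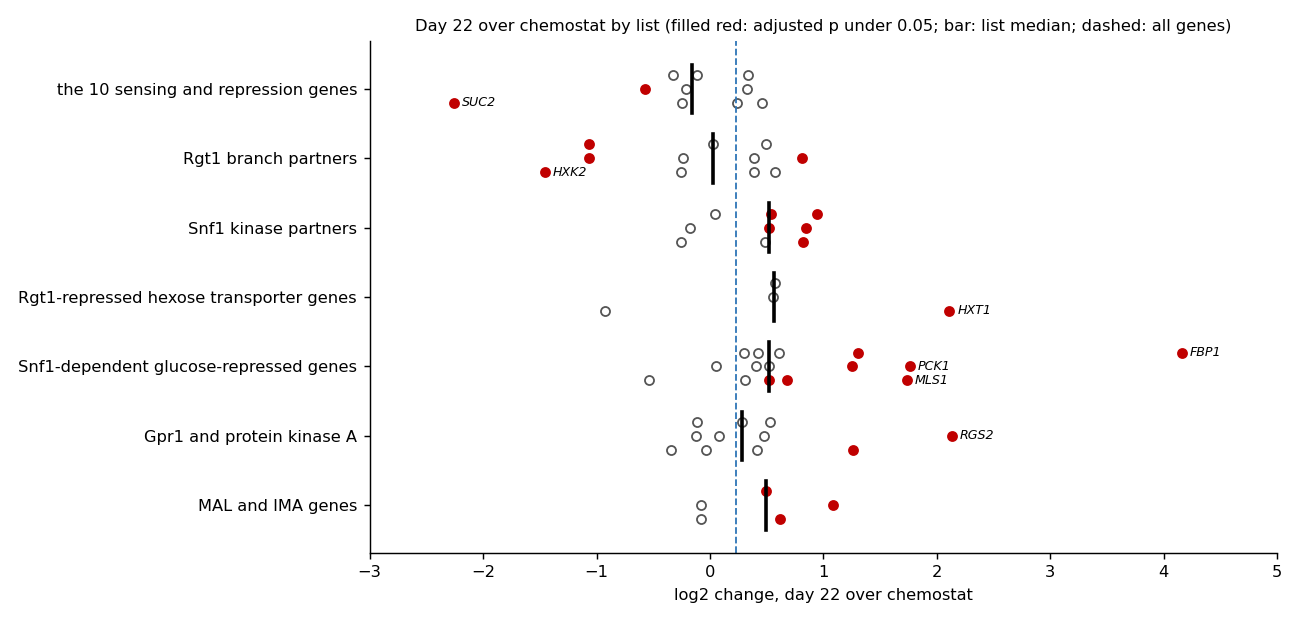
Log2 change at day 22 over the chemostat (horizontal axis) of each gene in the 10 sensing and repression genes and in the 6 partner and target lists (rows). Filled red points passed an adjusted p of 0.05, black bars are list medians, and the dashed line is the median of all genes, 0.23. The median of the 10 genes is -0.16, and those of the partner and target lists lie between 0.02 and 0.57.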

How the data were processed

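Total RNA was hybridised to 11 YG-S98 arrays. The deposited values are linear array intensities that the authors made with GCOS 1.2, per the submitters' processing notes. Which settings and which target were used for scaling is not given in the sources used here. Their scaling was kept, since 2% trimmed means differed by at most 0.0218% between arrays. Values under 12 were set to 12 and their log2 was taken.

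Of 9335 probe sets, 60 are controls. By the platform annotation 6504 others name a single gene and were used, while 328 name several and 2443 name none. All 6504 were looked up in the R64 annotation and no symbol changed. A gene with several probe sets took the one with the highest mean log2 value. The 5597 genes above the floor on at least 1 array were tested with limma 3.58.1 in R 4.3.3, with 1 mean for each of the 5 groups, 6 residual and 4.85 prior degrees of freedom. P-values are two-sided and were adjusted by the Benjamini-Hochberg method over all genes within each comparison, at a threshold of 0.05. "Rose" and "fell" are used of genes that passed. The number of arrays limits the precision. Probe sets of different genes were not compared in level. The file names no genome build, so no coordinates are given.

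The members and the partner lists were chosen with earlier results of these data known. All 10 members are named. From each list, at most the 3 largest rises and the 3 largest falls among genes that passed at day 22 against the chemostat are named. Genes most like a member are given for members that passed the F test over 5 groups with a log2 change of at least 1 in size. MAL12 and MAL32 were on the lists and are not analysed here. Of the 12 genes listed for the Gpr1 route, 11 were tested.

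Same-numbered retentostat arrays were taken as the same culture, as the design gives duplicate cultures sampled on 4 days. No label states the culture of each array. The difference between the cultures correlated across genes between every pair of days, with r from 0.07 (days 9 and 16) to 0.39 (days 16 and 22). The actin ratio was lower on the second array on day 16 (0.472 against 0.736) and on day 22 (0.341 against 0.571). For that pair of days, culture and RNA integrity therefore cannot be told apart. The alternatives were other scalings, floors, filters, probe set rules, arrays in the fit, blocks for the culture, actin ratio, limma settings and single arrays left out. The fit was tested on simulated data.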

Additional observations from a re-analysis of the deposited data

Results flagged for a closer look

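The changes of 3 members differed between retentostat days in the direct test of 1 day against another. SUC2 was -1.51 at day 9 against day 2, -1.78 at day 16 against day 2 and -1.50 at day 22 against day 2 on the log2 scale. MTH1 was -0.85 at day 16 against day 2 and -0.65 at day 22 against day 2. RGT2 was -0.82 at day 9 against day 2, -0.77 at day 16 against day 2 and -0.75 at day 22 against day 2. In each of these comparisons both cultures were lower on the later day. The RGT2 calls and the MTH1 call at day 22 did not pass in the fit with the culture as a block over the retentostat arrays.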

How the results depend on the processing

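Of 2540 member changes recomputed under 26 alternatives, 2444 kept their direction and side of the threshold or changed sign with neither value called (106), 75 lost their call, 21 gained one and 0 called changes reversed. The count over the 5 groups was 1 (SUC2) without the 2 arrays of lowest actin ratio and with that ratio as a covariate. Over the 4 retentostat days it was 1 with no floor, with only the arrays compared, with the actin covariate, with the replicate block over all arrays or over the retentostat arrays and with every probe set on its own, and 0 without the lowest actin arrays. At day 9 against the chemostat it was 2, with RGT1 added, with a floor of 50, a mean of at least 50, no filter, or limma with trend and robust settings. At day 22 against the chemostat it was 5 with quantile scaling (RGT2, MIG1 and SNF1 added), and 1 without the lowest actin arrays and with the actin covariate. At day 9 against day 2 it was 1 with no floor, no filter, either replicate block, every probe set on its own or without the lowest actin arrays, and 0 with only the arrays compared. At day 16 against day 2 it was 1 with only the arrays compared and 0 without the lowest actin arrays. At day 22 against day 2 it was 1 with only the arrays compared, the replicate block over the retentostat arrays or without the lowest actin arrays, and 0 with the actin covariate. Neither block changed another count by over 1.5 times. The culture as a random block gave a correlation of 0.079. Testing every probe set on its own was chosen after seeing the data.

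Leaving out 1 array at a time gave 2 to 4 over the 5 groups, 0 to 3 over the retentostat days, 1 to 3 at day 9, 2 to 3 at day 16 and 1 to 2 at day 22 against the chemostat. It gave 0 to 2 at day 9, 1 to 3 at day 16 and 1 to 3 at day 22 against day 2, 0 to 1 at day 22 against day 9, and 0 in the other comparisons. The count over the retentostat days was 0 without day 2 replicate 2. At day 9 against day 2 it was 0 without either day 2 array or day 9 replicate 1. At day 9 against the chemostat it was 3 without day 9 replicate 2, which added RGT1 and RGT2, and 2 without day 9 replicate 1, which added MTH1. Apart from the smaller number of arrays or genes that some alternatives leave, the cause was not tested. For MIG2, signal at the floor is the limit.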

Other observations

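The strain is labelled MATa, and the a-specific genes MFA1, MFA2 and STE2 were above the floor on every array. At day 22 against the chemostat MFA2 rose by 0.78 on the log2 scale (limma, adjusted p = 0.00704). STE2 rose by 0.72 (adjusted p = 0.00638), and MFA1 did not pass (0.41, adjusted p = 0.255). Genes specific to the opposite mating type were also above the floor and were higher on the later days. MF(ALPHA)1, an α-factor precursor gene, was at 147.3 to 194.0 in the chemostat, 327.6 to 380.5 on day 2, 666.3 to 1206.2 on day 9, 1552.8 to 1574.6 on day 16 and 1733.4 to 2049.2 on day 22. Its log2 change at day 22 against the chemostat was 3.53 (limma, adjusted p = 6.54e-06). STE3, the a-factor receptor gene of α cells, was at 132.1 to 178.2 at day 22 and 54.1 to 65.8 in the chemostat, a log2 change of 1.40 (adjusted p = 0.000326). The groups did not overlap for either gene between day 22 and the chemostat. These genes were looked at as a check of the label, and why they were higher was not tested.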
